A study of Homo sapiens with 6 samples.

Results

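The 6 genes described here are the interferon lambda ligands IFNL1, IFNL2 and IFNL3, the type I interferon gene IFNB1, and the chains of the lambda receptor, IFNLR1 and IL10RB. They were found by symbol in the deposited tables, and all 6 of them had a row among the 32192 genes with counts. The family was chosen by the counts of IFNL3, which stood higher with APEX1 overexpression in an earlier analysis of these libraries, so the differences of the 6 genes between the conditions are given as a description, with no test of their own. RNA was sequenced from A549 cells, an established human lung adenocarcinoma line, in 3 libraries of cells transfected with a plasmid for APEX1 (APEX1-OE) and 3 of cells with the control plasmid (Ctrl). The authors asked whether APEX1, a DNA repair endonuclease that also binds RNA, regulates alternative splicing, and they also tested which genes changed in expression. The APEX1 coding sequence was carried, with a FLAG tag, by the vector pIRES-hrGFP-1a, and transfection was transient. Both groups received plasmid DNA, and untransfected cells were not analysed here. Nothing in the labels says whether the 3 libraries of a group came from separate transfections, so the spread between them may be partly technical.

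Type III interferons are secreted by cells that sense foreign nucleic acid, and they act mainly on epithelial cells, since IFNLR1 is expressed in few other cell types. IFNLR1 gives the receptor its specificity, and IL10RB is an accessory chain that the receptors for IL-10, IL-22 and IL-26 also use. Receptor binding activates JAK1 and TYK2, and the signal passes through STAT2 and IRF9 to switch on interferon-stimulated genes. IFNB1 acts through a different receptor, of IFNAR1 and IFNAR2, to the same factors, and the IFNB1 and IFNL genes are themselves switched on by IRF3, IRF7 and NF-kB.

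The libraries held between 28131955 and 41009197 counts. APEX1 stood at 1252 ± 59.8 CPM (counts scaled by library size and TMM factor) with the APEX1 plasmid, against 233 ± 17.2 CPM without it (SD, n = 3 libraries each), which fits the labels. The first principal component, which held 72.6% of the variance in log2 CPM, did not follow the condition: APEX1-OE replicate 1 and Ctrl replicates 1 and 2 lay on one side (the first side below) and APEX1-OE replicates 2 and 3 and Ctrl replicate 3 on the other. The first side held the libraries with fewer counts (28131955 to 34398771, against 35234411 to 41009197). They also had fewer genes with a count (23754 to 24369, against 25620 to 26197). What the sides reflect was not tested. All 10 epithelial and A549 markers examined were detected above the filter on low counts, although EPCAM was low (means of 0.880 and 0.761 CPM in APEX1-OE and Ctrl), and their summed level was 22780 to 29560 CPM in APEX1-OE and 22420 to 28890 CPM in Ctrl. Of 12 leukocyte markers, 9 had a row and 4 passed the filter (CD14, CD68, ITGAM and ITGAX). PTPRC, which all leukocytes express, had at most 1 count in any library, and the summed level of the leukocyte markers was 9.77 to 12.2 CPM in APEX1-OE and 11.0 to 14.5 CPM in Ctrl.

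The lambda genes lie together on chromosome 19 of GRCh38, in the GENCODE 44 annotation. IFNL3 runs from 39243455 to 39245250 on the minus strand, IFNL2 from 39268396 to 39270188 on the plus strand, and IFNL1 from 39296407 to 39298673 on the plus strand. IFNL4, which lies next to IFNL3, and the pseudogenes IFNL3P1 and IFNL4P1 are in the same stretch. IFNB1 is a gene of 1 exon on chromosome 9, from 21077104 to 21077942 on the minus strand. IFNLR1 spans 24154168 to 24187959 on the minus strand of chromosome 1. IL10RB spans 33266367 to 33311420 on the plus strand of chromosome 21, between IFNAR2 and IFNAR1.

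**Figure D1:**
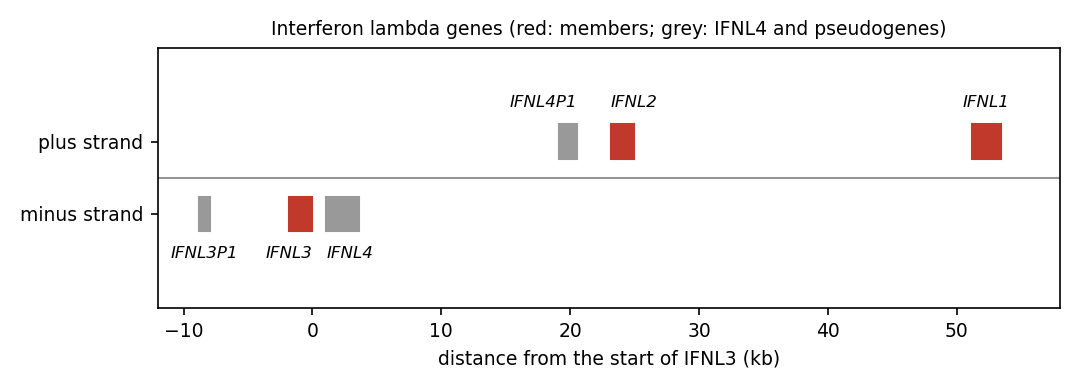
Map of the interferon lambda genes on chromosome 19, with the distance from the start of IFNL3 in kb on the horizontal axis and the strand on the vertical axis. IFNL3 and IFNL2 point away from each other, and IFNL1 begins 51.16 kb from the start of IFNL3.

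The ligand genes have promoters with matches to the factors that induce them, shown here because these 4 genes were the members that stood higher in APEX1-OE. The sequences are the 250 bases before the transcription start in the RefSeq promoter table (GRCh38.p14), which held all 6 members, and are printed 5′ to 3′ on the strand of the gene. Capitals mark every match, on either strand, to the core that interferon regulatory factors bind, AANNGAAA, and to the NF-kB consensus.
IFNL1 (chr19:39296157-39296406, plus strand): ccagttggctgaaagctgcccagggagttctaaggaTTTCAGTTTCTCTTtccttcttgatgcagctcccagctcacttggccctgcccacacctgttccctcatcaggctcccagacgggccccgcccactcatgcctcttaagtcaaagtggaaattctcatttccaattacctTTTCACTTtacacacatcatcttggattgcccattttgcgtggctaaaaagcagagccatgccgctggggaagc
IFNL3 (chr19:39245251-39245500, minus strand): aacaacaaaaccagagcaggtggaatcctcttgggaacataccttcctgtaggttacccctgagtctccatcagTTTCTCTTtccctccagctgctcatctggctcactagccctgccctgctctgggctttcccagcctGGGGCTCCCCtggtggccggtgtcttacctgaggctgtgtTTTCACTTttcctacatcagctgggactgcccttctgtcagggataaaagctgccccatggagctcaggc
IFNB1 (chr9:21077943-21078192, minus strand): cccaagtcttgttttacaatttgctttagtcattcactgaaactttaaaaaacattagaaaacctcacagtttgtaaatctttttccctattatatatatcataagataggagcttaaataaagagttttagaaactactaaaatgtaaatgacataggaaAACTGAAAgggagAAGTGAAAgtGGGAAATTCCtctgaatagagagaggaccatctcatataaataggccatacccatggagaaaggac
The IFNL1 window holds 3 matches to the core, which begin 214, 208 and 74 bases before the start and of which the first 2 overlap, and none to the NF-kB consensus. The IFNL3 window holds 2 matches to the core, at 176 and 70 bases, and 1 to the NF-kB consensus, at 110 bases. The IFNL2 window differs from that of IFNL3 at 1 of 250 bases and holds the same matches. In the IFNB1 window the core begins 89 and 76 bases before the start and the NF-kB consensus 66 bases before it. Neither the IFNLR1 nor the IL10RB window holds a match to either motif. The IFNLR1 window (chr1:24187290-24187539, minus strand) lies inside the gene as placed above, 24154168 to 24187959. It therefore precedes a start within the gene, and the bases before the outer start were not examined. RefSeq lists 2 promoters for IFNL3, and the matches given are those of the printed one. Over 27305 promoters of this length, 20.6% hold at least 1 match to the core, 4.7% at least 2, and 9.6% the NF-kB consensus. A match describes the letters only, since binding was not measured in these cells.

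IFNL2 and IFNL3 are near copies, which bears on how their reads can be told apart. Their coding sequences of 600 bases differ at 11 positions (98.2% identity), against 82.0% identity between IFNL1 and IFNL3. The 60 coding bases of 1 exon in which they differ most are printed with the 3 differing bases in capitals, both 5′ to 3′ along the transcript.
IFNL2 (chr19:39269567-39269626, plus strand, exon 4): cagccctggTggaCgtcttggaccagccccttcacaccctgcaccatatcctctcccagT
IFNL3 (chr19:39244019-39244078, minus strand, exon 4): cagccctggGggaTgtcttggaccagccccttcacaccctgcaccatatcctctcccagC
Of the 804 windows of 150 bases, the length of 1 read of a pair, in the longest IFNL3 transcript, 41 (5.1%) occur without change in IFNL2 and 683 (85.0%) lie within 4 mismatches of an IFNL2 window, with a median of 3. The authors allowed 4 mismatches in the alignment and kept uniquely mapped reads. Whether reads were given to the wrong copy was not tested, so the separate counts of IFNL2 and IFNL3 are uncertain. IFNL1 is distinct from both, with at least 7 mismatches to IFNL3 and 8 to IFNL2 in every window.

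**Figure D2:**
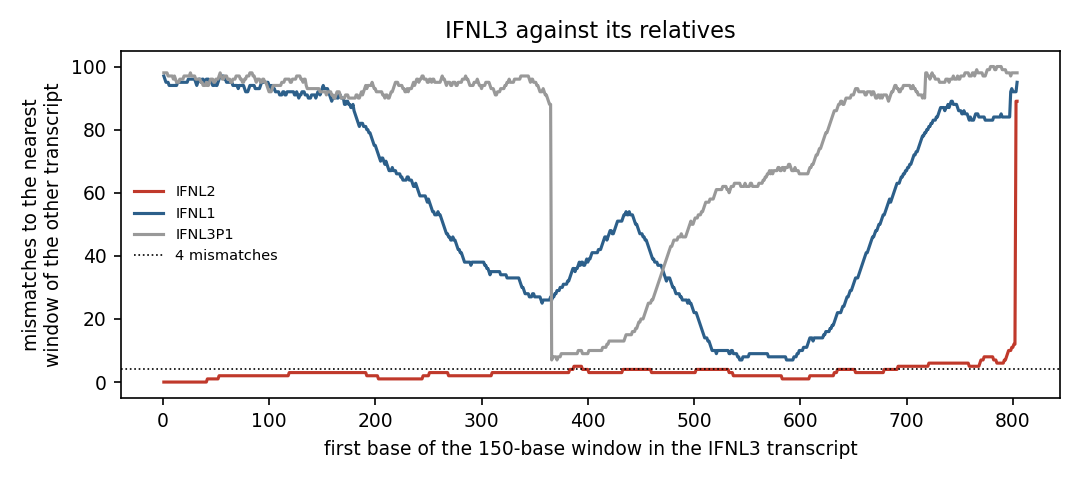
Mismatches between each 150-base window of the IFNL3 transcript and the nearest window of IFNL2 (red), IFNL1 (blue) and the pseudogene IFNL3P1 (grey), without gaps, against the first base of the window. The red line stays at or under the dotted line of 4 mismatches for 85.0% of windows, and the others never reach it.

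IFNL1, the lambda gene with the most counts in these cells, had 822, 711 and 497 counts in the APEX1-OE libraries, in the order of the replicate numbers, and 410, 433 and 394 counts in the Ctrl libraries. In CPM these were 31.2, 16.7 and 13.4 in APEX1-OE and 15.2, 13.1 and 10.0 in Ctrl. APEX1-OE replicate 1 stood far above the other 5 libraries, and APEX1-OE replicate 3 lay below Ctrl replicate 1, so the groups overlapped. The means were 20.4 ± 9.47 CPM for APEX1-OE and 12.8 ± 2.62 CPM for Ctrl (SD, n = 3 each), and the log2 fold change from the edgeR fit over all genes was 0.67 (standard error 0.354). Without APEX1-OE replicate 1 it was 0.22, so the size of this difference rests on that library. In these bulk libraries, more cells that transcribe a gene and more RNA in each of them cannot be told apart.

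The counts of IFNL3 were 258, 282 and 243 with the APEX1 plasmid, against 128, 155 and 136 with the control plasmid. In CPM, with exact 95% Poisson intervals, APEX1-OE replicate 1 was at 9.79 (8.63 to 11.1), replicate 2 at 6.64 (5.88 to 7.46) and replicate 3 at 6.53 (5.74 to 7.41). Ctrl replicate 1 was at 4.76 (3.97 to 5.66), replicate 2 at 4.70 (3.99 to 5.50) and replicate 3 at 3.46 (2.90 to 4.09). Every APEX1-OE library lay above every Ctrl library, and the intervals of the groups did not meet, but such intervals cover counting error only. The means were 7.65 ± 1.85 CPM and 4.31 ± 0.733 CPM (SD, n = 3 each), a ratio of 1.78, and the fitted log2 fold change was 0.83 (standard error 0.269). It was 0.60 without APEX1-OE replicate 1 and 0.69 without Ctrl replicate 3, and between 0.90 and 0.93 without each of the other libraries.

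IFNL2 had 220, 252 and 211 counts in APEX1-OE and 144, 111 and 166 counts in Ctrl, in the order of the replicates. This was 8.35, 5.93 and 5.67 CPM in APEX1-OE and 5.35, 3.37 and 4.23 CPM in Ctrl. The groups did not overlap, although APEX1-OE replicates 2 and 3 lay just above Ctrl replicate 1. Unlike for IFNL3, exact 95% Poisson intervals of the groups met, with 4.93 to 6.49 CPM for APEX1-OE replicate 3 and 4.51 to 6.30 CPM for Ctrl replicate 1. The means were 6.65 ± 1.48 CPM and 4.32 ± 0.996 CPM (SD, n = 3 each), and the log2 fold change was 0.62 (standard error 0.277), or 0.42 without APEX1-OE replicate 1. With the reads of IFNL2 and IFNL3 added together, which does not depend on how reads were divided between the near copies, the level was 14.3 ± 3.33 CPM with the APEX1 plasmid and 8.62 ± 1.30 CPM with the control, or 0.73 on the log2 scale (standard error 0.258).

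The division of reads between the near copies did not separate the groups. Of the reads of both genes, IFNL3 took 54.0%, 52.8% and 53.5% in the APEX1-OE libraries and 47.1%, 58.3% and 45.0% in the Ctrl libraries. The Ctrl libraries lay on either side of the APEX1-OE libraries. The Wilson 95% intervals of Ctrl replicate 2 (52.3% to 64.0%) and Ctrl replicate 3 (39.5% to 50.7%) did not meet, so the share differed within the Ctrl group by more than counting error. IFNL1 made up 50.9% to 61.9% of the reads of the IFNL genes, IFNL4 included, in APEX1-OE and 54.0% to 59.1% in Ctrl.

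IFNB1 had 144, 223 and 183 counts in APEX1-OE and 123, 118 and 126 counts in Ctrl. In CPM it stood at 5.46, 5.25 and 4.92 in APEX1-OE and at 4.57, 3.58 and 3.21 in Ctrl. The groups did not overlap, and the 3 APEX1-OE libraries were close to each other, with APEX1-OE replicate 1 no outlier as it was for IFNL1. The means were 5.21 ± 0.275 CPM and 3.79 ± 0.706 CPM (SD, n = 3 each), a log2 fold change of 0.46 (standard error 0.235). IFNB1 has a lower GC content than the lambda genes, 41.7% of the transcript against 57.5% for IFNL1, 55.1% for IFNL2 and 55.5% for IFNL3.

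The receptor chains did not stand with the ligands. IFNLR1 had 108, 176 and 139 counts in APEX1-OE and 111, 182 and 172 counts in Ctrl, which was 4.10, 4.14 and 3.74 CPM against 4.13, 5.52 and 4.38 CPM. The groups overlapped, since Ctrl replicate 1 lay within the range of the APEX1-OE libraries. Its means were 3.99 ± 0.223 CPM and 4.68 ± 0.744 CPM (SD, n = 3 each), with a log2 fold change of -0.23 (standard error 0.228, 95% interval -0.75 to 0.30). IL10RB had 544, 763 and 636 counts in APEX1-OE and 509, 645 and 662 counts in Ctrl. It varied least of the 6 genes, from 17.1 to 20.6 CPM in APEX1-OE and from 16.9 to 19.6 CPM in Ctrl, and its log2 fold change was 0.01 (standard error 0.210). The 95% interval of that difference, -0.47 to 0.49, leaves room for a change of up to 1.41-fold in CPM.

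The row of IL10RB may not hold all of its reads. A readthrough locus that joins IFNAR2 and IL10RB (AP000295.9, 33229892 to 33297160) had 210 to 368 counts of its own, 27.9% to 33.1% of the counts of both rows, and neither the labels nor the methods state how overlapping genes or strand were treated in the counting. The readthrough row differed by -0.02 on the log2 scale (standard error 0.213). The antisense gene IL10RB-AS1, which begins 0.1 kb away on the minus strand, had 75 to 136 counts and a log2 fold change of -0.04 (standard error 0.225). Near the lambda genes, IFNL4 was at 0.871 and 0.905 CPM in APEX1-OE and Ctrl, with a log2 fold change of -0.06 (standard error 0.277). The pseudogene IFNL3P1 differed by 0.12 on the log2 scale (standard error 0.420), and LRFN1, the nearest tested gene beyond IFNL1, by -0.01 (standard error 0.326). None of these 5 neighbours was called (edgeR's quasi-likelihood test, adjusted p = 1 for each).

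**Figure D3:**
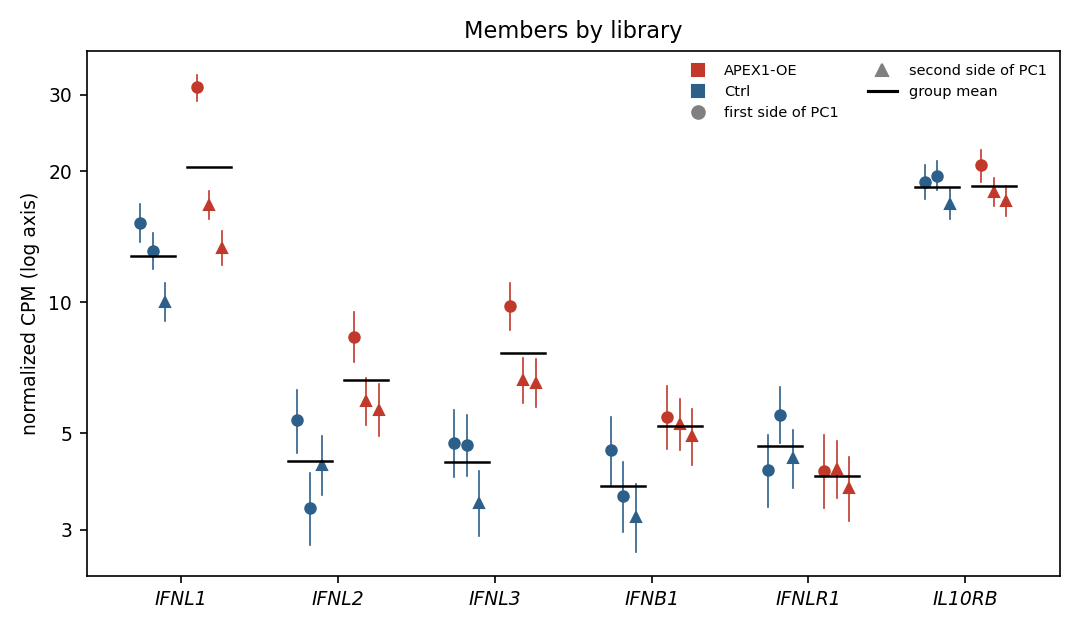
Normalized CPM of the 6 genes in each library on a log axis, Ctrl in blue and APEX1-OE in red, with exact 95% Poisson intervals as thin lines and the group mean as a black bar. Circles are the libraries on the first side of the first principal component and triangles those on the second. The points of IFNL2, IFNL3 and IFNB1 show no overlap between the groups, and those of IFNL1, IFNLR1 and IL10RB do. The intervals of the groups meet for IFNL2 and IFNB1 but not for IFNL3.

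All 6 genes passed the filter on low counts, and with condition alone in the model, edgeR's quasi-likelihood test called 0 of them (adjusted p under 0.05), beside 0.00589% of the 16971 tested genes (APEX1 alone). At an unadjusted p under 0.05 the same test counted 1 of the 6, beside 67 higher and 51 lower of the 16971 tested genes. DESeq2 and limma-voom called 0 of the 6. At an unadjusted p under 0.05 they counted 2 and 1 of the 6, beside 88 and 118 of the tested genes. The groups stood apart, APEX1-OE higher, for 3 of the 6 (IFNL2, IFNL3 and IFNB1), beside 1.38% of all tested genes. With the library side added to the model, a term known from the earlier analysis, 1 of the 6 was called, IFNL3, beside 0.0236% of the tested genes. The side was read from the first principal component of these same counts, so the p-values of that fit depend on it. At an unadjusted p under 0.05 edgeR's quasi-likelihood test then counted 1461 genes higher and 512 lower. Since the comparison of APEX1-OE with Ctrl chose the family, nothing is read from the counts of its members.

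Within each side the 4 ligand genes kept their direction. For IFNL2, IFNL3 and IFNB1 the direction could not have turned, since their groups did not overlap, so this split adds no support. On the first side, with 1 APEX1-OE library against 2 Ctrl libraries, the log2 ratio of mean CPM was 1.14 for IFNL1, 0.94 for IFNL2, 1.05 for IFNL3 and 0.42 for IFNB1. On the second side, with 2 APEX1-OE libraries against 1, it was 0.59 for IFNL1, 0.46 for IFNL2, 0.93 for IFNL3 and 0.66 for IFNB1. IFNL3 thus had nearly the same ratio on both sides, and that of IFNL1 and IFNL2 was larger on the first. IFNLR1 was at -0.24 and -0.15 and IL10RB at 0.10 and 0.06. With the side as a term in the edgeR fit, the log2 fold changes were 0.87 for IFNL1, 0.70 for IFNL2, 0.99 for IFNL3, 0.55 for IFNB1, -0.19 for IFNLR1 and 0.08 for IL10RB.

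**Figure D4:**
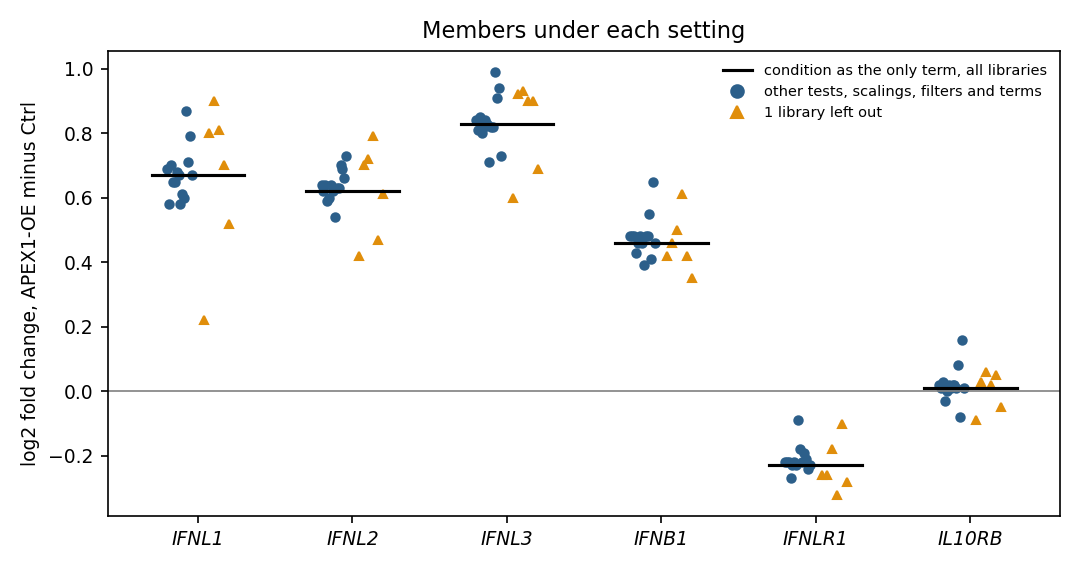
Log2 fold change of each gene between APEX1-OE and Ctrl, with all libraries and the condition as the only term (black bar), under other tests, scalings, filters and terms (blue circles) and with 1 library left out (orange triangles). The values of the 4 ligand genes stay above 0, with the lowest, 0.22, for IFNL1 without APEX1-OE replicate 1, those of IFNLR1 stay below 0, and those of IL10RB lie on both sides of it. With a library left out the sign was fixed for IFNL2, IFNL3 and IFNB1, whose groups do not overlap.

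Per transcript length, in the deposited FPKM over all 6 libraries, IFNL1 was the highest of the 6 genes at 15.5 ± 5.78 FPKM (SD, n = 6). IL10RB followed at 7.66 ± 0.135 FPKM, IFNL3 at 6.26 ± 2.06 FPKM, IFNL2 at 6.03 ± 1.64 FPKM and IFNB1 at 4.26 ± 0.873 FPKM. IFNLR1 was the lowest at 0.715 ± 0.0952 FPKM and was at most 0.87 FPKM. IFNL1 lay above IL10RB, IFNL2 above IFNB1 and IFNB1 above IFNLR1 in 6 of 6 libraries each, with an exact two-sided paired permutation p of 0.0312, the smallest that 6 libraries allow, and an adjusted p of 0.0521 over the 5 neighbouring pairs, so no pair passed 0.05. The pairs were taken from the order of these same values. At this smallest p a pair passes only if most of the 5 reach it, so the failure to pass does not mean equal levels. With the conditions pooled, as in all these tests, IL10RB lay above IFNL3 in 5 of 6 libraries (exact permutation p = 0.156, adjusted p = 0.195). IFNL3 lay above IFNL2 in 4 of 6 (exact permutation p and adjusted p = 0.562). The pooled spread of IFNL3 includes its difference between the conditions. In Ctrl, IL10RB was at 7.44 to 7.74 FPKM, above IFNL3 at 3.89 to 4.87 FPKM. In APEX1-OE their ranges overlapped, at 7.63 to 7.84 FPKM for IL10RB and 7.38 to 9.21 FPKM for IFNL3. The places of the genes depended in part on the length used for each. With counts per kb of all annotated exons (8025 bases for IL10RB in GENCODE 44), scaled by library totals without TMM, IL10RB fell behind IFNL3, IFNL2 and IFNB1, at 2.30 CPM per kb against 5.35 for IFNB1, while IFNL1 stayed first at 21.1 and IFNLR1 last at 0.877. On that scale IFNL2 lay above IFNB1 in 4 of 6 libraries (exact permutation p = 0.375, adjusted p = 0.469), against 6 of 6 in FPKM. By condition, the FPKM of IFNL1 was 19.0 ± 6.61 in APEX1-OE and 12.0 ± 1.96 in Ctrl, and that of IFNL3 was 8.02 ± 1.03 and 4.50 ± 0.532 (SD, n = 3 each).

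Other interferon genes were nearly silent. Of 18 further ligand genes of all 3 types, 10 had a row and 2 passed the filter, IFNL4 and IFNE, an epithelial type I interferon at 0.782 and 0.693 CPM in APEX1-OE and Ctrl. The IFNA genes with a row and IFNW1 had at most 3 counts in any library. Neither of the tested genes was called by edgeR's quasi-likelihood test, by DESeq2 or by limma-voom, and neither had an unadjusted p under 0.05 in any of the 3.

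The receptor family that IFNLR1 and IL10RB belong to, the class II cytokine receptors, had 9 tested genes among 10. By edgeR's quasi-likelihood test 0 of them were called and 1 had an unadjusted p under 0.05, and the counts were the same by DESeq2 and by limma-voom. Their median log2 fold change was 0.01 (-0.06 with the library side as a term), beside 0.03 over all tested genes. The interferon gamma receptor chain IFNGR1 was the highest with 190.2 ± 68.7 CPM for APEX1-OE and 186 ± 40.0 CPM for Ctrl (SD, n = 3 each), and IFNGR2 stood at 40.5 and 39.7 CPM. The type I receptor chains stood at 19.8 and 17.1 CPM (IFNAR1) and at 27.5 and 30.5 CPM (IFNAR2). The level of IFNAR1 followed the library side more than the condition, with 12.2 to 13.8 CPM on the first side and 22.6 to 24.5 CPM on the second. The IL-22 receptor chain IL22RA1, which also pairs with IL10RB, was at 7.80 and 7.91 CPM. The tissue factor gene F3, a distant member of the family that starts coagulation, had the unadjusted p under 0.05 (0.0247 from edgeR, adjusted p = 1), at 1.14 and 0.587 CPM. The group means of IL20RA, IL20RB and IL22RA2 were at most 1.34 CPM, and IL10RA, a receptor chain for IL-10, did not pass the filter with 2 to 14 counts in a library.

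Of 7 signal transduction genes downstream of the receptor 6 passed the filter, and JAK2 was the lowest of these, at 6.24 CPM in APEX1-OE and 4.18 CPM with the control plasmid. STAT2, a subunit of the complex that IRF9 joins, STAT3 and the kinase TYK2 lay between -0.03 and 0.00 on the log2 scale, and the kinases JAK1 and JAK2 were at 0.28 (standard error 0.369) and 0.58 (standard error 0.474), or at -0.07 and 0.16 with the side as a term. IRF9, the subunit that gives the complex its DNA specificity, did not pass the filter, with 1 to 4 counts in a library. A readthrough gene that overlaps it (ENSG00000259529.1) held 4106 to 5856 counts, so the level of IRF9 cannot be read from its own row. By edgeR's quasi-likelihood test 0 of the 6 tested genes were called, with 0 at an unadjusted p under 0.05, and DESeq2 and limma-voom gave the same counts.

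Genes that limit interferon signaling, not all of them that of the lambda receptor, such as SOCS1, USP18 and ISG15, were tested in full. Of 10 inhibitors, 0 were called by edgeR's quasi-likelihood test, by DESeq2 or by limma-voom, with 0 at an unadjusted p under 0.05 in each, and their median log2 fold change was 0.09. With the side as a term edgeR counted 3 inhibitors at an unadjusted p under 0.05, all higher (1461 higher and 512 lower of all genes). The highest were the phosphatase genes PTPN11 (0.45, standard error 0.481) and PTPN2 (0.39, standard error 0.331), which were at -0.01 and 0.13 with the side as a term. The lowest were CISH, a feedback inhibitor of STAT signaling (-0.24, standard error 0.420), and the phosphatase gene PTPN6 (-0.09, standard error 0.246).

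Genes that induce the ligands stood somewhat higher in APEX1-OE as a list, but 0 of the 31 tested were called by edgeR's quasi-likelihood test, by DESeq2 or by limma-voom. Of them 28 had a log2 fold change above 0 (90.3%, beside 57.5% of all tested genes), with a median of 0.17. With the side as a term the median was 0.04 and 22 of 31 were above 0, so the median of the list moved with this term. From edgeR 6 of the 31 then had an unadjusted p under 0.05, all higher (1461 higher and 512 lower of all genes). With condition alone the highest was JUN, a subunit of AP-1, which binds the IFNB1 enhancer. It was the 1 gene with an unadjusted p under 0.05 by each of the 3 tools. JUN was at 113.5, 93.5 and 65.9 CPM in APEX1-OE and 60.4, 56.0 and 49.8 CPM in Ctrl, so the groups did not overlap (log2 fold change 0.71, standard error 0.240, adjusted p = 1 from edgeR). With the side as a term JUN was called (log2 fold change 0.82, adjusted p = 0.0492 from edgeR), the 1 gene of these lists that was. That p depends on a side read from these same counts. TBK1, the kinase of IRF3, was at 0.52 (standard error 0.453), or 0.14 with the side as a term. The lowest were the DNA sensor TLR9 (-0.29, standard error 0.379) and IKBKE, a kinase close to TBK1 (-0.24, standard error 0.236). IRF3, RELA and IRF7 were at 0.05, 0.15 and 0.15, or at 0.30, 0.37 and 0.39 with the side as a term. STING (TMEM173) was at 0.811 and 0.812 CPM in APEX1-OE and Ctrl, and AIM2 had at most 1 count in a library.

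Of the 26 target genes, all tested, 25 had a log2 fold change above 0 (96.15%, beside 57.5% of all tested genes). Their median was 0.24, but by edgeR's quasi-likelihood test with condition alone 0 were called and 0 had an unadjusted p under 0.05. DESeq2 and limma-voom called 0 as well, with 2 and 0 at an unadjusted p under 0.05. The median was 0.19 with the side as a term, where 22 of 26 were above 0. In that fit edgeR's quasi-likelihood test called 0 and gave 10 of the 26 an unadjusted p under 0.05, all higher. Over all tested genes it gave 1461 higher and 512 lower. The direction of the targets was known when the list was written, so it is no independent support. The highest were SAMD9, an antiviral factor (0.73, standard error 0.343), and RSAD2, the antiviral enzyme viperin (0.64, standard error 0.328), which were at 0.41 and 0.37 with the side as a term. The lowest were IFI6, a mitochondrial interferon-induced protein (-0.08, standard error 0.271, and 0.15 with the side as a term), and OAS1, a sensor of double-stranded RNA (0.02, standard error 0.172). The levels of the targets in Ctrl ran from 1.02 CPM for CXCL11, a chemokine, to 2836 CPM for IFI6.

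**Figure D5:**
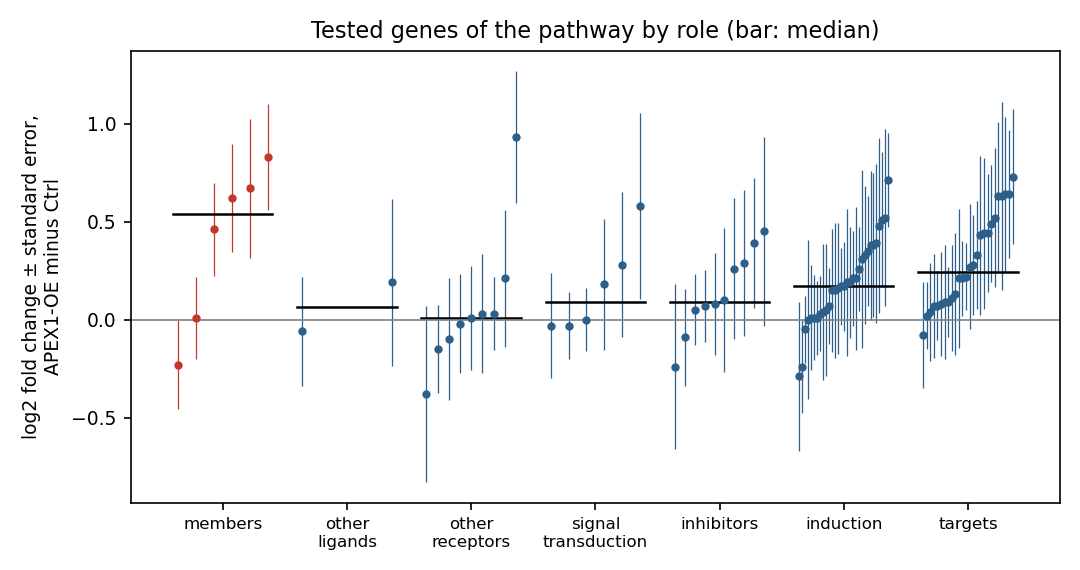
Log2 fold change between APEX1-OE and Ctrl, with its standard error, of every tested gene of the pathway grouped by role, with the members in red and the median of each group as a black bar. The medians are 0.54 for the members, 0.01 for the other receptors, 0.17 for the induction genes and 0.24 for the targets, beside 0.03 over all tested genes.

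Across the 6 libraries the ligand genes varied together. The Pearson correlation of log2 CPM was 0.90 between IFNL3 and IFNL1, 0.84 between IFNL3 and IFNL2, 0.83 between IFNL1 and IFNL2, and 0.77 to 0.89 between IFNB1 and the lambda genes. IFNLR1 had negative values with all 4 ligand genes (-0.75 to -0.25), and IL10RB lay at 0.77 with IFNL1 and between 0.30 and 0.53 with the others. These values describe 6 libraries that share the condition, the depth and the sides of the first principal component. The genes most like IFNL3 were RAET1L (r = 0.992), IGFL1 (0.987), RDH5 (0.986), RP11-504P24.3 (0.983) and CD37 (0.974), all with a mean under 1.5 CPM. RAET1L, a ligand of the NKG2D receptor of natural killer cells, was at 1.52, 1.06 and 0.941 CPM in APEX1-OE and 0.632, 0.576 and 0.356 CPM in Ctrl. Most like IFNL1 were GADD45B (0.992), a stress-induced gene, and SH3RF3 (0.989). GADD45B shared the high value in APEX1-OE replicate 1, at 43.1 CPM, against 21.6 and 27.7 CPM in the other APEX1-OE libraries and 18.4 to 26.1 CPM in Ctrl. Most like IFNL2 were OGFRP1 (0.982) and HCAR2 (0.964), and most like IFNB1 were RP11-1212A22.4 (0.972) and CH25H (0.970), an interferon-stimulated gene that makes an antiviral oxysterol. For IFNLR1 they were RP11-1055B8.9 (0.971) and RP11-216M21.1 (0.962), and for IL10RB they were HM13 and BMP1 (both 0.999). With so many genes and 6 libraries, such values describe likeness in these libraries only.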

How the data were processed

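The 6 RNA-seq libraries came from A549 cells, 3 APEX1-OE and 3 Ctrl, with groups and replicate numbers from the sample titles. The authors trimmed with the FASTX-Toolkit and mapped to GRCh38 in tophat2, and from uniquely mapped reads made the deposited raw counts per gene and the deposited FPKM, rounded to 2 decimals. The sources used here do not name the counting tool, the annotation or the use of strand.

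Counts were filtered (filterByExpr, minimum count 10 and total 15), scaled by TMM and tested across all 16971 genes with edgeR's quasi-likelihood test (edgeR 4.0.16, R 4.3.3, condition only, Benjamini-Hochberg at 0.05). DESeq2 1.42.0 and limma 3.58.1 served as alternatives. The GC and length offset was a spline with 5 degrees of freedom each, for 98.7% of the tested genes. Neighbours in the order of FPKM were compared by exact permutation (scipy 1.17.1). The edgeR and permutation scripts were tested on simulated data. The simulated counts varied less between replicates than the members did and had no library sides. That check therefore does not show how many real changes would be missed in these libraries.

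The members and gene lists were chosen with earlier results of these data known. The genes named are the members, APEX1, the tested receptors, signal transduction genes and other ligands, the 2 highest and 2 lowest of each further list and those called with or without the side term, the nearest tested neighbours, and the genes most correlated with each member (5 for IFNL3, 2 for the others). Others named as context (EPCAM, the 4 leukocyte markers that passed the filter, PTPRC, SOCS1, USP18, ISG15, IRF3, RELA, IRF7, TMEM173, AIM2 and CXCL11) were added after their values were seen. Splicing events were not analysed here. The values of 1 signal transduction gene are not reported here.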

Additional observations from a re-analysis of the deposited data

How the results depend on the processing

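The log2 fold changes of the 4 ligand genes were above 0 under all 20 alternatives, from 0.22 to 0.90 for IFNL1, 0.42 to 0.79 for IFNL2, 0.60 to 0.99 for IFNL3 and 0.35 to 0.65 for IFNB1, those of IFNLR1 were below 0 under all 20 (-0.32 to -0.09), and those of IL10RB lay between -0.09 and 0.16. With a library left out, the sign was fixed for IFNL2, IFNL3 and IFNB1, whose groups did not overlap. The other settings reused the same counts. The lowest values of IFNL1, IFNL2 and IFNL3 came without APEX1-OE replicate 1, and that of IFNB1 without Ctrl replicate 3. Values moved by more than the SD between replicates for IFNB1 (0.65) and IL10RB (0.16) when the library side and an offset for GC content and transcript length entered together, and the cause was not tested.

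The number of genes called was 1 with all libraries and the condition alone, 10 without a filter on low counts (7 higher), 4 with the library side as a term (all higher), 12 with the offset and the side together (11 higher), and between 0 and 1 with a library left out (0 without APEX1-OE replicate 2 or 3 or Ctrl replicate 1 or 2). The members called were 0, but 1 with the side (IFNL3) and 2 with the offset and the side (IFNL1 and IFNL3). The pathway genes called were 0, but 1 with the side (JUN) and 2 with the offset and the side (JUN and IFIT2). The order of levels gave 0 pairs past the threshold on each of the 3 scales, a threshold that 6 libraries leave little room to reach.

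With the replicate number as a block 2 genes were called (1 higher) and no member. The libraries with number 1, 2 and 3 had correlations of their deviations from the group means of 0.607, -0.521 and 0.700. The libraries numbered 1 lay on the same side, as did those numbered 3, and those numbered 2 lay on opposite sides. These values therefore cannot settle whether the numbers pair the libraries. IFNL2, IFNL3, IFNB1 and IFNLR1 rested on 108 to 282 counts per library, which limits the precision of their changes.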
